A study of Homo sapiens with 12 samples.

Results

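These are the set 2 libraries of HEK293T, an established human embryonic kidney cell line, in a ribosome profiling study of eIF2A knockdown. They were chosen by their titles, which give the line, the siRNA and the set number, and they are 4 of the 12 libraries of the series. All 4 came from cells exposed to sodium arsenite. 2 were labelled control siRNA and 2 eIF2A siRNA, and each siRNA had 1 library labelled as CBP80 immunoprecipitation (IP) and 1 as eIF4E IP. The labels give no arsenite dose or duration, no siRNA sequence and no library from unstressed HEK293T cells, and they do not say whether the set numbers stand for separate cultures.

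In ribosome profiling, the pieces of mRNA that a translating ribosome shields from nuclease are sequenced, so the fragments over a coding sequence follow its mRNA level and its translation together. eIF2A is a protein that can bring initiator tRNA to the small ribosomal subunit without eIF2, the factor that normally does so. eIF2 is held back when stress kinases phosphorylate its alpha subunit, as arsenite, an oxidative stressor, is known to bring about. CBP80 is part of a nuclear complex that binds the cap of new mRNAs, while eIF4E is the cap-binding protein of cytoplasmic translation. The HEK293T titles set eIF2A siRNA beside control siRNA under an IP label for each of these proteins.

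The CBP80 and eIF4E libraries of 1 siRNA were close to repeat runs. Over genes with at least 20 reads, their chi-square per degree of freedom was 1.03 in control and 1.02 with eIF2A siRNA, where 1 is sampling noise. Between the siRNA labels it was 9.08 for the CBP80 pair and 8.52 for the eIF4E pair. It was 4.25 between the CBP80 libraries of control siRNA in set 1 and set 2. The 2 runs of each siRNA were therefore summed, which gave 9500566 coding reads in control and 11138651 with eIF2A siRNA. Levels below are counts per 1000000 coding reads (CPM), and a ratio is the CPM with eIF2A siRNA over that in control. With 1 library a side there is no replicate, so no test was made. Each ratio carries a 95% interval from the exact binomial distribution that covers counting error only, not the spread between cultures.

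Footprints on EIF2A (NM_032025 in the files) were lower in both libraries labelled eIF2A siRNA. The control libraries held 81.3 CPM (CBP80 IP) and 86.1 CPM (eIF4E IP), and the eIF2A siRNA libraries 45.3 and 48 CPM in the same order. Libraries of the same siRNA are close to repeat runs and do not count as replicates. Summed, 793 reads in control and 520 with eIF2A siRNA gave 83.5 and 46.7 CPM, a ratio of 0.559 (0.5 to 0.626). The ratio was 0.558 in the CBP80 pair and 0.557 in the eIF4E pair. The set 1 control lay at 83.2 CPM, so the set 2 library stood at 0.561 of that as well (0.503 to 0.625). EIF2A ranked 41 from the lowest among 8469 coding sequences with at least 200 reads in the summed libraries. Of 6506 with a mean of at least 20 CPM, 20 had a lower ratio.

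In set 1, EIF2A stood at 96 CPM in the summed library labelled eIF2A siRNA and at 83.2 CPM in its control. The ratio there was 1.15 (1.05 to 1.26) with total coding reads and 1.06 (0.968 to 1.16) with TMM scaling, where the interval includes 1. TMM scaling put the set 2 ratio at 0.538 (0.481 to 0.602). The set 2 ratio was 0.485 times that of set 1 (0.421 to 0.559 by a normal interval on the log scale, counting error only). Set 2 is the HEK293T set in which the targeted coding sequence carried fewer footprints with the eIF2A siRNA label.

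The other factors able to place or join initiator tRNA outside the eIF2 route stood closer to control. EIF2D held 88.8 and 90 CPM in the control libraries and 74.2 and 88 CPM with eIF2A siRNA, a summed ratio of 0.91 (0.828 to 1). MCTS1 and DENR, which form a complex related to eIF2D, had ratios of 1.13 (1 to 1.28) and 1.14 (1.04 to 1.25). EIF5B, the GTPase of subunit joining, held 390.4 and 392.9 CPM in control and 503.8 and 526 CPM with eIF2A siRNA, a ratio of 1.32 (1.26 to 1.37). EIF2A was the sole member of these 5 past 1.5-fold.

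**Figure D1:**
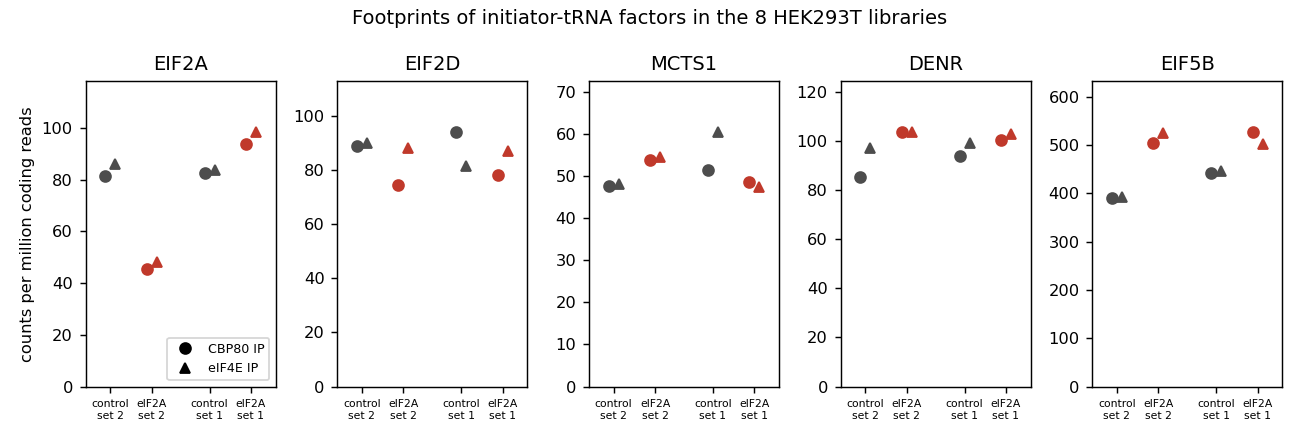
CPM of EIF2A, EIF2D, MCTS1, DENR and EIF5B in each of the 8 HEK293T libraries, control siRNA in grey and eIF2A siRNA in red, circles for CBP80 IP and triangles for eIF4E IP. The set 2 libraries labelled eIF2A siRNA held 45.3 and 48 CPM of EIF2A, below the other 6 libraries, while EIF5B lay above its control in both sets.

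Past 1.5-fold, 419 of 8469 coding sequences were higher with eIF2A siRNA (4.95%) and 195 lower (2.3%), the latter at a ratio of at most 0.667. Between the CBP80 and eIF4E runs of 1 siRNA, 0.0477% of coding sequences with at least 200 reads were past 1.5-fold in control and 0.0725% with eIF2A siRNA. Between the controls of both sets 0.887% were, against 7.25% between the siRNA labels of set 2. The direction of the majority depended on scaling. Higher coding sequences made up 68.2% of those past 1.5-fold when total coding reads were the scale, and 46.7% with TMM scaling, which gave 266 higher and 303 lower. The median log2 ratio of all 8469 was 0.05 with total coding reads and -0.00 with TMM, and their middle 50% lay between -0.16 and 0.27.

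Taken against the controls of both sets, 51 coding sequences were past 1.5-fold higher (0.602%) and 68 lower (0.803%) with eIF2A siRNA. The interval lay wholly past 1.5-fold for 67 higher (0.791%) and 50 lower (0.59%). With TMM scaling these became 39 and 93 against both controls, and 36 and 75 by the interval. The share past 1.5-fold higher went from 8.25% among coding sequences below 20 CPM to 0.474% among the 1055 above 200 CPM, and the share lower from 3.67 to 1.42%. Just inside the upper threshold stood TAF13 (1.5008) and PDS5A (1.5023), and just outside STK3 and SALL1 (both 1.4988). At the lower threshold PPARGC1B (0.6662) and SHMT2 (0.6654) were inside, and FANCG (0.6671) and MRNIP (0.6672) outside.

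**Figure D2:**
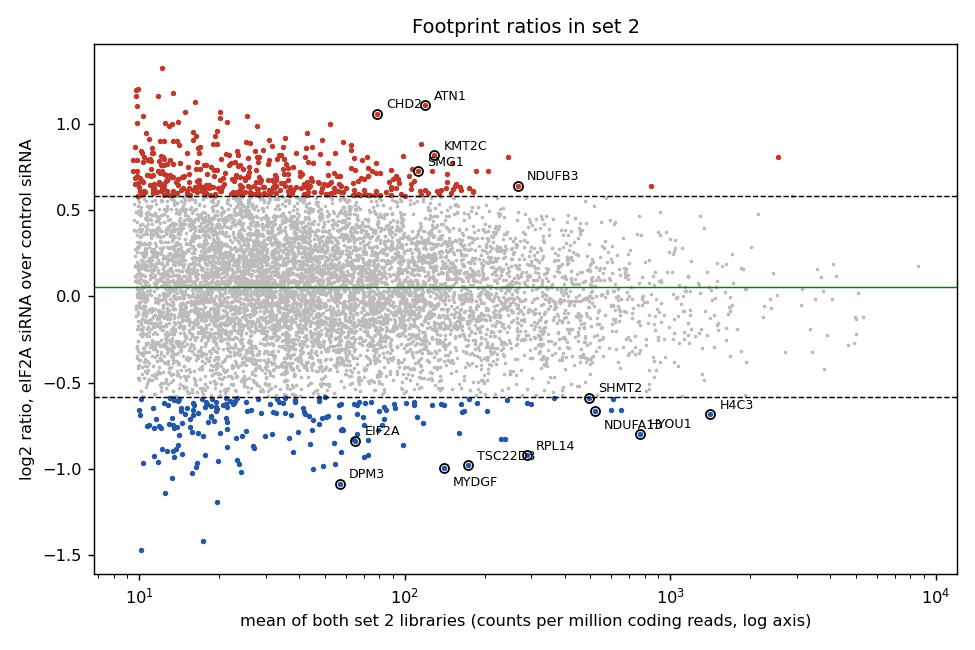
Log2 ratio of eIF2A siRNA over control siRNA in set 2 against mean CPM (log axis), 1 point per coding sequence with at least 200 reads. Dashed lines mark 1.5-fold, red points lie above and blue below, and the green line is the median of all at 0.05. EIF2A lies among the lower points, and circles mark named genes.

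The 12 highest ratios among genes averaging at least 20 CPM, past 1.5-fold in each IP pair, ran from 1.88 to 2.16. ATN1, a transcriptional corepressor, held 71.2 and 80.3 CPM in the control libraries and 165.4 and 160.3 CPM with eIF2A siRNA. Its ratio was 2.16 (1.98 to 2.36), and 1.98 over the set 1 control. CHD2, a chromatin remodeller, held 47.2 and 55.9 CPM in control and 104.2 and 108.9 CPM with eIF2A siRNA, a ratio of 2.08 (1.87 to 2.32). Both genes had no overlap between siRNA labels, which their choice by each IP pair all but fixed in advance.

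RHOT1, a GTPase that ties mitochondria to motor proteins, stood at 16.5 CPM in control and 34.2 CPM with eIF2A siRNA, a ratio of 2.07. ZFYVE9, an endosomal adaptor of TGF-beta receptors, stood at a ratio of 2.05 and DENND4A, an activator of Rab GTPases, at 1.99. NETO2, an auxiliary subunit of kainate receptors, stood at 2.1 and the kinase MAPKAPK5 at 2.

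The histone methyltransferase NSD3 stood at 24.4 CPM in control and 46.1 CPM with eIF2A siRNA, a ratio of 1.89, and the deubiquitinase USP25 from 29.2 to 56.4 CPM, a ratio of 1.93. POLR2J, a subunit of RNA polymerase II, stood at 1.88. It has near-identical copies, so its counts are uncertain. CRIPT, a binding partner of the synaptic scaffold PSD-95, stood at 1.88 and CCDC181 at 2.02.

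The 12 lowest ratios ran from 0.471 to 0.528. DPM3, which anchors the enzyme of dolichol-phosphate mannose synthesis in the endoplasmic reticulum (ER), held 74.3 and 81.3 CPM in control and 32.1 and 40.5 CPM with eIF2A siRNA. Its ratio was 0.471 (0.416 to 0.532). TSC22D3, a glucocorticoid-induced leucine zipper protein, held 231 and 229.7 CPM in control and 122.1 and 112 CPM with eIF2A siRNA, a ratio of 0.507 (0.473 to 0.544). MYDGF, a secreted growth factor, stood at 187.4 CPM in control and 94 CPM with eIF2A siRNA, a ratio of 0.502 (0.464 to 0.542). None of these 3 overlapped between siRNA labels, which the same rule of choice all but fixed in advance.

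CHCHD2 and its paralog CHCHD10, proteins of the intermembrane space, stood at 0.505 and 0.518, and MICOS13, a subunit of the complex that shapes cristae, at 0.5 (0.436 to 0.573). SLC37A4, the glucose-6-phosphate transporter of the ER, stood at 0.51, the zinc importer SLC39A1 at 0.523 and the metallothionein MT2A at 0.509. RPL14, from the large subunit of the ribosome, stood at 377.6 CPM in control and 199.3 CPM with eIF2A siRNA, a ratio of 0.528 (0.5 to 0.557). IGFBP5, a secreted binder of insulin-like growth factors, stood at 0.528 and SCRN2 at 0.493. RPL14, CHCHD2 and MT2A have near copies elsewhere in the genome, so their counts are uncertain.

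The set 1 control stood on the side of the eIF2A siRNA library for all 24 of these genes. Its level was 1.09 to 1.6 times that of the set 2 control at the 12 highest, and 0.6 to 0.951 times at the 12 lowest. The set 2 control entered the choice of these genes and the set 1 control did not. Over the set 1 control, 7 of the 12 highest and 8 of the 12 lowest were still past 1.5-fold. MT2A and SCRN2 were not, at 0.849 (0.692 to 1.04) and 0.745 (0.611 to 0.908), while DPM3 was at 0.549 and TSC22D3 at 0.533. By RefSeq's annotation of GRCh38.p14, 9 of the 24 overlap another protein-coding gene, and without the strand setting of the counts those reads cannot be told apart. The same holds for genes named further on, among them EIF2AK2, NCBP1, SEC61A1, DPAGT1, PIGH, GLA, SHMT1, SHMT2, NDUFA2, KMT2E, RPL17, FTH1 and HTRA2.

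**Figure D3:**
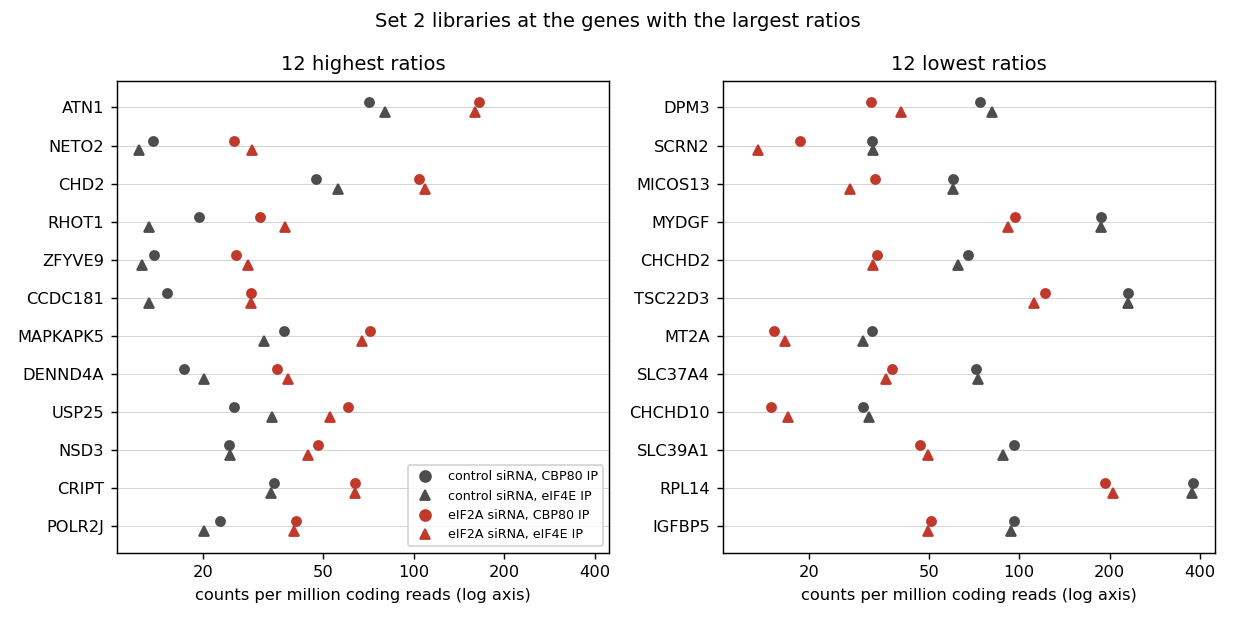
CPM (log axis) in each of the 4 set 2 libraries at the genes with the 12 highest and 12 lowest ratios, grey for control and red for eIF2A siRNA, circles for CBP80 IP and triangles for eIF4E IP. At each of the 24 genes both red points lie on the same side of both grey points. The choice of genes by each IP pair all but fixed this in advance.

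Among abundant coding sequences, at a mean of at least 200 CPM, 5 were past 1.5-fold higher and 15 lower (4 and 33 with TMM scaling), and these were singled out after their values were seen. SF3B1, a core component of the U2 snRNP of the spliceosome, stood at 1844 CPM in control and 3235 CPM with eIF2A siRNA, a ratio of 1.75 (1.72 to 1.79). The RNA-binding protein HNRNPK stood at 1.56. KTN1, a kinesin-binding ER protein, stood at 1.66 and NDUFB3, a subunit of respiratory complex I, at 1.56. On the lower side stood the tubulin TUBA1B at 0.633, UROD, an enzyme of haem synthesis, at 0.661, and NUCB1, a calcium-binding Golgi protein, at 0.564. In set 1 the ratio of HNRNPK was 1.17 (1.13 to 1.2) and that of NDUFB3 1.28, both under 1.5-fold. SF3B1 stood there at 1.55, KTN1 at 1.66, TUBA1B at 0.613, UROD at 0.665 and NUCB1 at 0.599.

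The account of gene groups uses lists written by function, and each list's median log2 ratio is given minus the median of all 8469, a difference that no scaling changes. Counts of members past 1.5-fold use total coding reads and read against 4.95% higher and 2.3% lower over all. Counts given with TMM scaling read instead against 266 higher and 303 lower of the 8469.

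Subunits of eIF2 and of its exchange factor eIF2B lay slightly below the typical gene. None of 9 measured members passed 1.5-fold, and the list's median stood 0.20 below that of all. EIF2B4 was lowest at 0.733 (0.654 to 0.821), from 69.4 to 50.8 CPM, and EIF2B2 next at 0.8 (0.733 to 0.873). EIF2S1, the alpha subunit that stress kinases phosphorylate, was at 1.03 (0.973 to 1.1). The kinases and phosphatase subunits of that site lay higher, with all 6 above the median of all. EIF2AK2, the kinase activated by double-stranded RNA, held 24.6 and 21.2 CPM in control and 40.3 and 31.7 CPM with eIF2A siRNA, a ratio of 1.55 (1.31 to 1.84), which TMM scaling puts under 1.5-fold. EIF2AK1, the kinase known for its response to haem lack and arsenite, was at 1.28 (1.14 to 1.43), and PPP1R15A, which guides the phosphatase, at 1.05.

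None of 14 cap-binding proteins and scaffolds and none of 12 eIF3 subunits passed 1.5-fold. NCBP1, which encodes CBP80, held 100.2 and 102.3 CPM in control and 125.9 and 119.7 CPM with eIF2A siRNA, a ratio of 1.21 (1.12 to 1.32). EIF4E, with 170 reads and so under the minimum and not among the 14, was at 7.47 CPM in control and a ratio of 1.19 (0.868 to 1.64). EIF4EBP2, a repressor of eIF4E, and NCBP3 stood farthest from 1, at 1.48 and 1.28, while EIF3K and EIF3H were the lowest eIF3 subunits at 0.762 and 0.832.

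Factors of nonsense-mediated decay, which removes mRNAs with early stop codons, tended higher. Of 15 measured with the exon junction complex, 2 were past 1.5-fold higher and none lower, and the median stood 0.16 above that of all. SMG1, the kinase of this pathway, held 87.4 and 81.5 CPM in control and 143.2 and 137.5 CPM with eIF2A siRNA, a ratio of 1.66 (1.52 to 1.8). UPF2 was at 1.43 and SMG5 at 1.39, while UPF1, the helicase at the centre of the pathway, was at 0.986 (0.923 to 1.05).

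ER chaperones and XBP1 had the lowest median of all lists, 0.43 below that of all coding sequences. Of 24 measured, 2 were past 1.5-fold lower (8.33%) and none higher (3 and none with TMM scaling), and 21 lay below the median of all. HYOU1, a nucleotide exchange factor for the ER chaperone BiP, held 974.3 and 975 CPM in control and 561 and 561.4 CPM with eIF2A siRNA, a ratio of 0.576 (0.558 to 0.595). SDF2L1, a partner of ER DnaJ proteins, stood at 132 CPM in control and 85.3 CPM with eIF2A siRNA, a ratio of 0.646 (0.593 to 0.704). HSPA5, which encodes BiP, stood at 4345 CPM in control and 3249 CPM with eIF2A siRNA, a ratio of 0.748 (0.737 to 0.759). The transcription factor XBP1 was at 0.684 (0.626 to 0.747), the disulfide isomerase PDIA4 at 0.722 and HERPUD1, of ER-associated degradation, at 0.714. HSP90B1 and CALR were closer to 1, at 0.92 and 0.804, and DNAJB9 was at 0.979 (0.799 to 1.2). Of the 24, 17 had intervals wholly below 1 and 2 wholly above it, and the highest log2 ratio was 0.38.

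Some promoters of this list hold a known sequence element, shown here because the list had the lowest median. The ER stress element, CCAAT and CCACG with any 9 bases between them, on either strand, was found in 6 of the 23 members that had a RefSeq promoter (250 bases before to 50 after the start) and in 11 of 7122 measured genes (0.154%). The 250 bases before the start, 5′ to 3′ on the gene's strand in GRCh38.p14, are printed with the element in capitals for HSPA5 (chr9:125241344-125241593, minus strand), XBP1 (chr22:28800570-28800819, minus strand) and HSP90B1 (chr12:103930160-103930409, plus strand).
HSPA5: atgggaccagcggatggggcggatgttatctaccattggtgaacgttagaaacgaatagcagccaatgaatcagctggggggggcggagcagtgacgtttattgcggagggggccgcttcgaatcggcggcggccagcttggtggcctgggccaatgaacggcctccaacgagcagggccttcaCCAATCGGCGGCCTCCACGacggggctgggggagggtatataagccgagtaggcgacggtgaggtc
XBP1: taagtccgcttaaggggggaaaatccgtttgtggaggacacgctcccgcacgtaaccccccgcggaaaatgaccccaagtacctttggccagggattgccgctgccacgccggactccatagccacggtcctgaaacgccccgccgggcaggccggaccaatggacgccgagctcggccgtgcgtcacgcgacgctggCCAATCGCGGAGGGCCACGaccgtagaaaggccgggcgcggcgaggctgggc
HSP90B1: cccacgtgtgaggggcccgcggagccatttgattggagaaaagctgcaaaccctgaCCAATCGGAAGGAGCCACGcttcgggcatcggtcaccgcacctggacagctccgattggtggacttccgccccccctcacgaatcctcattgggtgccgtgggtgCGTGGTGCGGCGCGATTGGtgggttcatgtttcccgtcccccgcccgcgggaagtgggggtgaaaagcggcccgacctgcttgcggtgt
HSP90B1 carries the element in both orientations. The other matches were CALR, CANX, at a ratio of 0.918, and CRELD2, at 0.968 (0.824 to 1.14). Ratios of the 6 genes ran from 0.684 for XBP1 to that of CRELD2. HYOU1, the lowest of the list, has no match to these letters in this window. Of all 27305 promoters in the table, 22 held a match (0.0806%). The 6 matches of the list are among the 11 of the measured genes. Past 1.5-fold, 1 of 168 promoters of lower genes held the element and 0 of 352 of higher genes. The share in the list was not tested against any ratio. The sterol regulatory element, TCAC and CCAC with any 1 base between them, was in 1 of 18 promoters of the cholesterol list, that of SREBF2, and in 69 of 7122 measured genes (0.969%).

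Other genes of the secretory pathway were mixed. Of 36 genes of dolichol-sugar and glycosylphosphatidylinositol (GPI) anchor synthesis, 4 were past 1.5-fold lower (11.1%) and none higher. Besides DPM3 they included DPAGT1, which starts the N-glycan precursor, from 75.2 to 40.2 CPM (0.535, 0.474 to 0.603), DPM2, a partner of DPM3, at 0.63, and PIGL, a GPI deacetylase, from 69.7 to 38.7 CPM (0.555, 0.491 to 0.628). PIGH, with 169 reads and so under the minimum, was at 0.39 (0.276 to 0.544). Oligosaccharyltransferase subunits had none of 12 past 1.5-fold and a median 0.26 below that of all, with KRTCAP2 at 1.31 and OSTC at 0.774. Of 21 genes of ER targeting and translocation, SEC61A1, the channel subunit, was past 1.5-fold lower at 0.66 (0.624 to 0.698), and the list's median was 0.04 below that of all. With TMM scaling 4 of the 21 were past 1.5-fold lower.

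Lysosomal proteins, which reach their place through the ER, had 2 of 24 past 1.5-fold lower and 22 below the median of all. CTSD, a protease, held 250.1 and 251.2 CPM in control and 155.3 and 160.3 CPM with eIF2A siRNA, a ratio of 0.63. GLA, alpha-galactosidase A, stood at 734.7 CPM in control and 466 CPM with eIF2A siRNA, a ratio of 0.634 (0.612 to 0.658). Of 22 collagens, laminins and integrins, COL4A6 (0.569, 0.482 to 0.672) and LAMB2 (0.664, 0.551 to 0.799) were past 1.5-fold lower.

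Cholesterol synthesis and its regulators had 3 of 24 past 1.5-fold lower (12.5%), none higher, and a median 0.29 below that of all. DHCR7, the last enzyme of one branch of the pathway, held 106.8 and 97.9 CPM in control and 63 and 59.4 CPM with eIF2A siRNA, a ratio of 0.595 (0.539 to 0.657). MVD, mevalonate decarboxylase, was at 0.661 and INSIG1, which retains the SREBP activator in the ER, at 0.61 (0.466 to 0.797) from 14.4 CPM.

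Nuclear-encoded subunits of oxidative phosphorylation lay 0.30 below the median of all, with 62 of 75 below it. Past 1.5-fold, 4 were lower (5.33%) and 1 higher. NDUFA13 held 625.8 and 652 CPM in control and 407.6 and 397.6 CPM with eIF2A siRNA, a ratio of 0.631 (0.607 to 0.656). NDUFS7, at 0.621, and NDUFA2, at 0.649, also belong to complex I, as does NDUFB3, which was higher at 1.56 (1.48 to 1.65). Mitochondrial ribosomal proteins had 1 of 77 past 1.5-fold lower, MRPL52 at 0.655 (3 of 77 with TMM scaling), and 64 below the median of all. Enzymes of the tricarboxylic acid cycle and glycolysis had none past 1.5-fold, with medians 0.25 and 0.20 below that of all, ENO2 at 0.677 and IDH2, the mitochondrial isocitrate dehydrogenase, at 0.69. With TMM scaling each of the cycle and glycolysis had 1 past 1.5-fold lower.

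All 11 measured enzymes of serine and one-carbon metabolism lay below the median of all. SHMT1 and SHMT2, the cytosolic and mitochondrial serine hydroxymethyltransferases, were past 1.5-fold lower. SHMT1 held 69.6 and 69.7 CPM in control and 46.1 and 44.5 CPM with eIF2A siRNA, a ratio of 0.649 (0.577 to 0.73), and SHMT2 stood at 595.7 CPM in control and 396.4 CPM with eIF2A siRNA, a ratio of 0.665.

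Replication-dependent histones lay 0.39 below the median of all, with 38 of 40 below it, 3 past 1.5-fold lower (7.5%) and none higher. With TMM scaling 9 were past it lower. H4C3 held 1756 and 1728 CPM in control and 1101 and 1071 CPM with eIF2A siRNA, a ratio of 0.623 (0.608 to 0.638). H2BC13 was at 0.649 and H4C16 at 0.663. Histone genes are highly alike in sequence, so the assignment of reads to single members is uncertain. Enzymes that act on histones stood on the other side. Of 21 histone methyltransferases and acetyltransferases, 4 were past 1.5-fold higher (19%) and none lower (2 and none with TMM scaling), with a median 0.32 above that of all.

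KMT2C, a methyltransferase of histone H3 lysine 4, held 88.6 and 99.3 CPM in control and 172.7 and 157.7 CPM with eIF2A siRNA, a ratio of 1.76 (1.63 to 1.91). KMT2E was at 1.53 and the acetyltransferase CREBBP at 1.51 (1.4 to 1.63), and TMM scaling put them at 1.48 and 1.45, under 1.5-fold. KMT2D was at 0.908 (0.86 to 0.959). Chromatin remodellers lay 0.29 above the median of all, with 2 of 19 past 1.5-fold higher, CHD2 and CHD1. CHD1 was at 1.53 (1.43 to 1.65), but at 1.47 with TMM scaling and 1.46 in the CBP80 pair alone, which leaves CHD2 alone past 1.5-fold, CHD7 at 1.45 and CHD4 at 1 (0.969 to 1.03).

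Cytosolic ribosomal proteins had 3 of 65 past 1.5-fold lower (4.62%) and none higher, with a median 0.17 below that of all. RPL14 and RPL13A, from 304.4 to 171.5 CPM (0.563), were among them. RPL17, with 148 reads and so under the minimum, stood on the other side at 2.65 (1.81 to 3.98). Many members have pseudogene copies, and reads placed at more than 1 site were not counted to genes.

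Targets of ATF4 and the stress response lay 0.25 below the median of all, with 1 of 17 past 1.5-fold, ATF3 (2 of 17 with TMM scaling). ATF3, a transcription factor induced by stress, held 82.4 and 89.6 CPM in control and 57.4 and 54.2 CPM with eIF2A siRNA, a ratio of 0.651 (0.585 to 0.723). ATF4 itself, whose translation is known to rise when eIF2 is limiting, stood at 665.8 CPM in control and 579.4 CPM with eIF2A siRNA, a ratio of 0.87 (0.841 to 0.901). DDIT3 was at 1.02 (0.902 to 1.15), and the cystine transporter SLC7A11 at 0.735. Immediate early genes had 2 of 18 past 1.5-fold lower, ATF3 and BTG2 (0.664), and a median 0.22 below that of all.

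Genes known to answer arsenite through redox and metal sensors were split. Of 19 measured, FTL, the ferritin light chain, stood at 16.9 CPM in control and 30 CPM with eIF2A siRNA (1.77, 1.46 to 2.15) and FTH1, the heavy chain, from 9.79 to 15.1 CPM (1.54, 1.19 to 2.01), while MT2A was lower. HMOX1, haem oxygenase, was at 1.27 (1.17 to 1.38) and TXNRD1 at 0.978. Both ferritins have many pseudogenes, and with TMM scaling FTL alone was past 1.5-fold higher. Of 17 heat shock genes, HSPB1, a small heat shock protein, was past 1.5-fold lower, from 40.4 to 25.3 CPM (0.626, 0.535 to 0.732), and HSF1 was at 1.38 (1.19 to 1.59). HSPA1A and HSPA1B are near-identical in sequence and are listed at 0 in all 4 libraries. Of 15 p53 targets, GDF15, a stress cytokine, was higher at 2.15 (1.58 to 2.96) from 6.21 CPM, and BTG2 was the 1 past 1.5-fold lower (2 with TMM scaling). BTG2 stood at 0.861 in the CBP80 pair and 0.497 in the eIF4E pair, so its call rests on the eIF4E pair.

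Lists with no or 1 member past 1.5-fold included TRiC chaperonin (8 measured), proteasome (30), cytosolic aminoacyl-tRNA synthetases (19), mitosis (22) and SR proteins with their kinases (21), all with none, and DNA replication (37) with 1. That 1 was CCNE1, the cyclin of S-phase entry, from 16.9 to 29.1 CPM (1.72, 1.42 to 2.09). CENPE and CENPF, large kinetochore proteins, were both at 1.35, and QARS1 at 0.698. CCT6A and CCT5, subunits of the same chaperonin, were at 0.786 and 1.22.

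**Figure D4:**
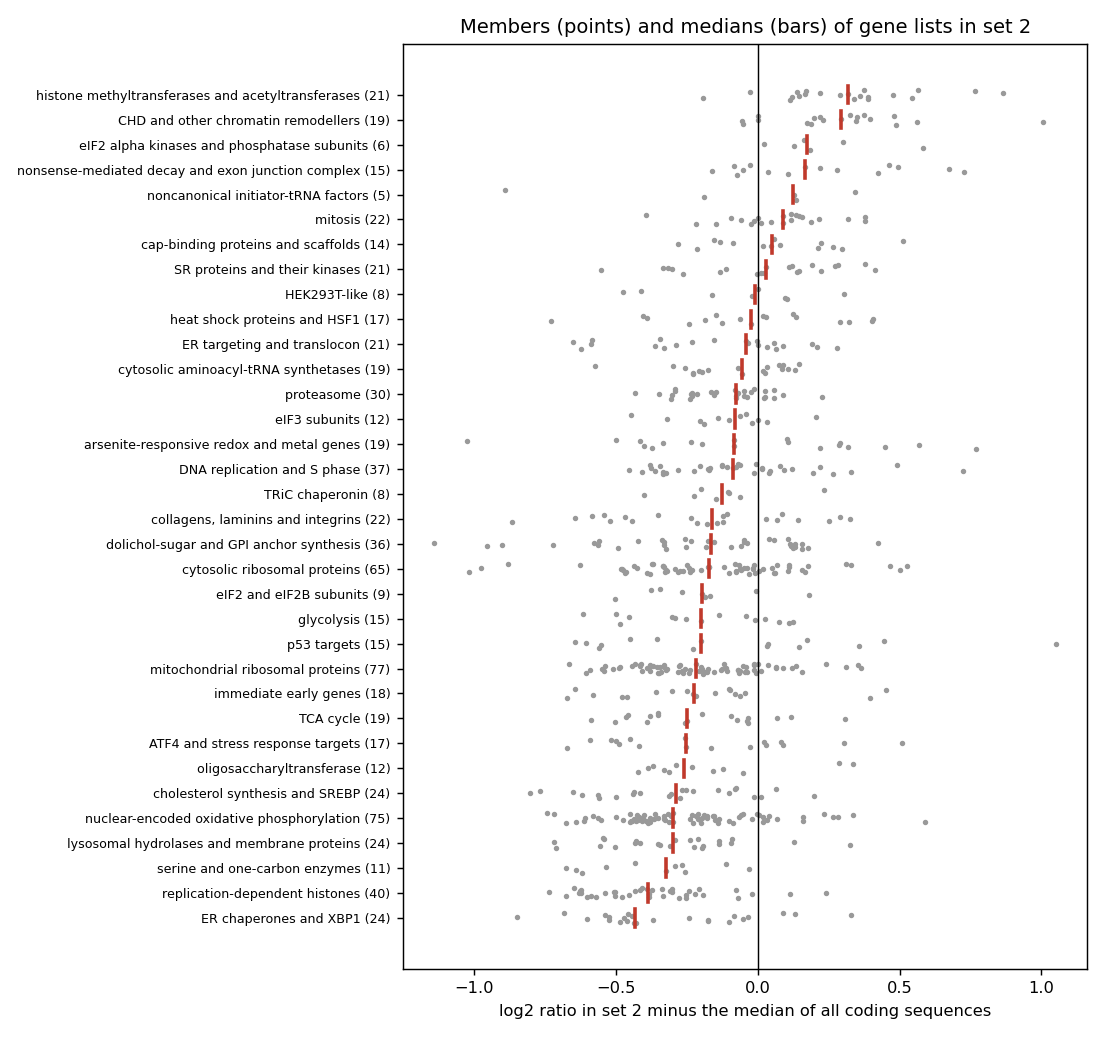
Log2 ratio in set 2 minus the median of all coding sequences, 1 grey point per measured member and a red bar at each list's median, for lists with at least 5 measured members (number in brackets). ER chaperones lie lowest at -0.43 and histone methyltransferases and acetyltransferases highest at 0.32.

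Grouping by symbol stem, a description added after the data were seen, gave 54 stems with at least 15 measured members. The lowest medians were those of MRPS (27 mitochondrial small-subunit proteins, 0.33 below that of all) and the CD stem (16, 0.28 below). The CD stem had 2 past 1.5-fold higher and 2 lower. Transmembrane genes of the TMEM stem had 7 of 86 past 1.5-fold lower and 2 higher, and SLC carriers 7 of 123 lower and 2 higher. The highest medians were ANKRD (21 ankyrin repeat genes, 5 past 1.5-fold higher, 0.30 above), MAP (30, 0.28 above), ARHGAP (15, 0.25 above) and the deubiquitinases USP (38, 5 higher, 0.23 above). Centrosomal CEP genes had 6 of 35 higher and none lower. The 236 ZNF genes lay 0.05 above. Promoter GC content had a median of 69.7% in the higher genes, 65% in the lower and 65.3% in all measured.

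Set 1 shares no library with set 2, so its ratios can be set beside these. Of 8413 coding sequences measured in both sets, 253 were past 1.5-fold higher in each, which is 60.7% of those in set 2 and 41.3% of those in set 1. For lower ones the shared number was 48, or 25.3% and 45.3%. With TMM scaling of both sets, 119 were shared higher and 108 lower. Set 1 had 7.94% of its measured coding sequences higher and 1.29% lower. Over the coding sequences measured in set 2, 3% were higher in both sets and 0.567% lower in both. In set 2 alone, the interval lay above 1 for 33% and below it for 23%. The intervals excluded 1 on the same side in 3244 and on opposite sides in 186, of which 76 were below 1 in set 2 and above it in set 1. With TMM scaling 185 lay on opposite sides, 24 of them below 1 in set 2. The set 1 median of ER chaperones stood 0.37 below that of all, of histones 0.27 below and of histone methyltransferases and acetyltransferases 0.38 above. Not every list kept its place. The p53 targets lay 0.03 below in set 1 and 0.20 below in set 2. Collagens, laminins and integrins lay 0.03 and 0.16 below in the same order, and ER targeting and translocation 0.30 and 0.04 below. No test of the differences between sets was possible with 1 library per label and set.

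EIF2A was 1 of 8 coding sequences with a mean of at least 20 CPM that were past 1.5-fold lower in set 2 and at or above 1 in set 1. The others included GSTP1, CCDC85C, HACL2, RNF7, SLC39A4 and EXOSC6. GSTP1, a glutathione transferase, stood at 204.7 CPM in control and 128.9 CPM with eIF2A siRNA in set 2 (0.63, 0.588 to 0.675) and at 140 and 140.7 CPM in set 1, so its controls differed between sets. The same held for CCDC85C, at 83.8 CPM in the set 2 control and 54.9 CPM in that of set 1. EIF2A had equal controls, at 0.997 of each other, and with total coding reads it was the sole one of the 8 whose set 1 interval lay wholly above 1. These counts rest on the scaling. With TMM, 2 coding sequences were past 1.5-fold lower in set 2 and at or above 1 in set 1, neither with a set 1 interval above 1, and EIF2A was the 1 of the 8 still at or above 1 in set 1.

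KLHL7, an adaptor of a ubiquitin ligase, held 20.3 and 20.5 CPM in the set 2 control libraries and 15.7 and 15.9 CPM with eIF2A siRNA (0.774, 0.627 to 0.954), against a ratio of 2.62 in set 1. PPFIA3, a liprin of synapses, was at 1.17 in set 2 and 2.7 in set 1, and HTRA2, a mitochondrial protease, at 0.763 and 1.46. In the other direction LSM5, a subunit of the ring that binds U6 RNA, was at 1.29 (1.22 to 1.37) in set 2 and 0.845 in set 1. FAIM, an inhibitor of apoptosis, stood at 1.35 and 0.831, DPCD at 1.13 and 0.716, ZBTB8OS at 1.15 and 0.679, and ZNF136 at 1.4 and 0.886. Over the set 1 control, the set 2 eIF2A siRNA library stood at 1.05 for KLHL7, 1.49 for PPFIA3 and 0.929 for HTRA2. It stood at 1.06 for LSM5, 1.14 for FAIM, 0.943 for DPCD, 0.987 for ZBTB8OS and 1.11 for ZNF136.

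**Figure D5:**
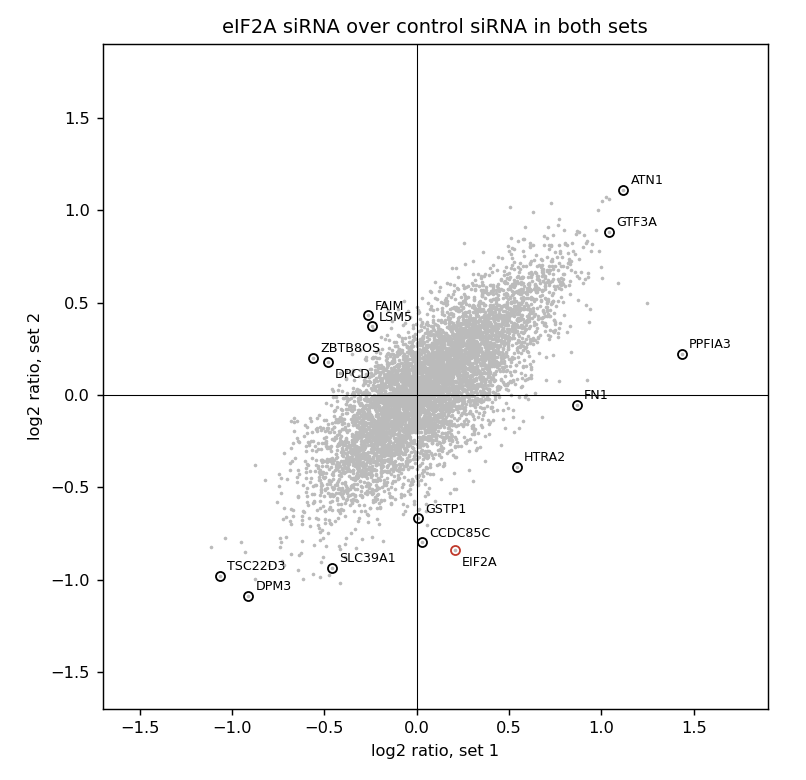
Log2 ratio of eIF2A siRNA over control siRNA in set 2 against that in set 1, 1 grey point per coding sequence with a mean of at least 20 CPM in set 2, with named genes circled. EIF2A (red) lies in the lower right, at a ratio of 0.559 in set 2 and 1.15 in set 1, and ATN1, GTF3A, DPM3 and TSC22D3 lie on the same side in both sets.

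Library make-up moved with the siRNA label. Of uniquely placed reads, 42.3% fell outside coding sequences with eIF2A siRNA and 35.2% in control, and whether this bears on any ratio was not tested. Set 1 moved the same way, at 51.1% with eIF2A siRNA and 40% in control. Of 9 genes commonly expressed in HEK293T, none was at 0 in set 2, and their summed level was 877.8 to 903.6 CPM in control and 959.6 to 961.5 CPM with eIF2A siRNA. The pluripotency markers POU5F1, NANOG and LIN28A were at 0 in the 4 libraries, and the sum of that list, 44.2 to 50.1 CPM, came mostly from DNMT3B. Fibroblast markers summed to 20.5 to 24 CPM and blood markers to 0.58 to 2.08 CPM. Hepatocyte markers, 15 genes added after ALB and APOB had been seen, summed to 12.6 to 25.7 CPM in set 2 and 88 to 331 CPM in set 1. ALB stood at 4.95 CPM in control and 5.3 CPM with eIF2A siRNA in set 2, a ratio of 1.07 (0.718 to 1.61), against a ratio of 3.46 in set 1. APOB stood at 1.46 (1.03 to 2.1) in set 2, with 2.65 in the CBP80 pair and 0.818 in the eIF4E pair on 144 reads, and at 3.73 in set 1.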

How the data were processed

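Each deposited file lists counts, as whole numbers, for coding sequences named by RefSeq accession. The submitters' processing notes name cutadapt, STAR 2.5.2b and hg19. How reads were assigned to genes, and whether strand was used, is not given in the sources used here. Rows that name no gene held 87.5 to 89.5% of counts in set 2, mostly non-unique alignments, and were left out. Of 19305 accessions, 18888 were named through RefSeq's GRCh38.p14 table. Single libraries held 4331459 to 5775177 coding reads, where 3 counts stand for 0.519 to 0.693 CPM.

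Ratios use total coding reads and Clopper-Pearson intervals (scipy 1.17.1). The code was run on data simulated with counting error only, which cannot show how the intervals hold between cultures. Fragments carry no molecular identifiers. TMM and RLE scaling came from edgeR 4.0.16. Groups came from titles. Members and lists were chosen with earlier results of these data known. Named genes are EIF2A, the 12 highest and lowest ratios, the 6 largest contrasts with set 1 each way, up to 4 members per list, and NCBP1, EIF4E and ATF4. Other genes were named for their roles after values were seen. Alternatives were the scaling, the read minimum, single IP pairs, left-out libraries and set 1. Protein length was planned but not run, and promoter sequence was added after the data were seen. A few genes that these rules or counts include are not reported here.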

Additional observations from a re-analysis of the deposited data

Results flagged for a closer look

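8 of the named genes had ratios on opposite sides of 1 in the sets, in both IP pairs of each set and with summed intervals that excluded 1 with total coding reads. With TMM scaling, the interval of EIF2A in set 1, of IDH2 in set 1 and of ZBTB8OS in set 2 included 1, and the other 5 kept intervals on opposite sides. These contrasts depend on the control. Over the set 1 control, the set 2 eIF2A siRNA library stood at 0.561 for EIF2A and 0.762 (0.61 to 0.95) for IDH2. FAIM stood at 1.14 (1.04 to 1.24) and LSM5 at 1.06 (1 to 1.11). KLHL7 was at 1.05 (0.847 to 1.31) and HTRA2 at 0.929 (0.814 to 1.06), where the intervals include 1. DPCD, at 0.943 (0.881 to 1.01), and ZBTB8OS, at 0.987 (0.896 to 1.09), lay below 1. The differences between sets were not tested, since each label and set has 1 library. The set 2 ratio was 0.485 times the set 1 ratio for EIF2A, the targeted gene, 0.295 times for KLHL7, 0.525 times for HTRA2 and 0.563 times for IDH2, a mitochondrial isocitrate dehydrogenase. It was 1.69 times for ZBTB8OS, 1.62 times for FAIM, 1.58 times for DPCD and 1.53 times for LSM5. Of 8413 coding sequences measured in both sets, 186 had intervals on opposite sides of 1, so such contrasts are not limited to these 8.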

How the results depend on the processing

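The EIF2A ratio was 0.538 with TMM and with RLE scaling, 0.557 without the 20 most abundant coding sequences, 0.542 to 0.575 when each library was left out in turn, and reversed to 1.15 in set 1, though with TMM scaling that set 1 ratio was 1.06 (0.968 to 1.16) and its interval includes 1. The 419 higher and 195 lower coding sequences became 266 and 303 with TMM and with RLE scaling, 761 and 400 at 50 reads, 109 and 67 at 1000 reads, 1835 and 1152 with 1 read on each side as the only minimum, and 67 and 50 with the interval wholly past 1.5-fold. Set 1 gave 689 and 112. Added after the data were seen, 51 and 68 passed against the controls of both sets, and 254 and 48 passed in set 1 too. Leaving out each library gave 341 to 433 higher and 176 to 218 lower. ATP5MF-PTCD1, a read-through annotation, reversed from 1.51 to 0.976 in set 1, where the interval of 0.811 to 1.17 includes 1, and its set 2 ratio was 1.82 in the CBP80 pair and 1.23 in the eIF4E pair. The causes of these differences were not tested. No paired analysis was possible because the comparison lies within 1 set number and comes from no test. The planned description by protein length and hydrophobic stretches was not run. Differences of rare coding sequences within their counting intervals were not detectable at this depth.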
